A study of Homo sapiens with 8 samples.

Results

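EN2 was compared with its empty vector in A549, a human lung adenocarcinoma cell line, across every annotated gene of the array. The comparison used 4 of the study's 8 arrays, chosen by their titles: 2 of A549 carrying EN2 and 2 of A549 carrying the vector. Both groups had been infected with retrovirus made in 293FT packaging cells, one coding for EN2 and the other holding only the Neo vector, and both were kept as stable lines after selection with genemycin, as the labels name the drug. The vector cells therefore share the infection and the selection with the EN2 cells. A549 was grown in F-12K medium with 10% FBS, RNA was extracted with Trizol, and each array received biotin-labelled cDNA. The remaining 4 arrays hold PC9, another lung adenocarcinoma line, in the same design. They enter the choice of probe set and the estimate of the spread behind every p-value, and their changes are set beside those of A549 at the end; with the A549 arrays alone, 51 genes were called higher and 41 lower. The labels do not say whether the replicates were separate cultures, or whether a stable line was 1 clone or a pool, so p-values measure the spread between these arrays, which may be technical.

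EN2 (engrailed homeobox 2) is a DNA-binding homeodomain protein. Engrailed proteins act mostly as transcriptional repressors, through corepressors of the Groucho/TLE family, and are best known for patterning the midbrain-hindbrain boundary of the embryo. A549 cells carry an inactivating KEAP1 mutation, so genes driven by the antioxidant factor NRF2 run high in this line, and their p53 is wild type.

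Values are log2 expression per probe set, so a difference of 1 is a 2-fold difference. Over all 49495 probe sets, the A549 arrays had medians between 6.33 and 6.35. Across these probe sets, which are not independent replicates, the replicates correlated at 0.997 in both groups, and arrays of different groups at 0.992 to 0.996. Signals at or below 4.41, the 95th percentile of 100 spike-in probe sets that have no target in these RNAs, are called background here. The array's own background probes had means between 4.74 and 4.77 on the A549 arrays, above this cutoff. Values near those means may therefore hold little signal. Control signals were not level between the groups. The 18S ribosomal RNA probe sets read 11.66 and 12.12 on the EN2 arrays and 12.44 and 12.74 on the vector arrays. That signal therefore rose array by array, with every EN2 array below every vector array. The 28S signal took the same order, from 9.69 and 9.83 with EN2 to 9.93 and 10.12 with vector. Actin's 3′ probe set exceeded its 5′ probe set by 0.98 and 0.88 with EN2 and by 0.79 and 0.78 with vector, the reverse order. On the PC9 arrays the 18S signal stayed between 6.05 and 6.10. Because this gradient moves with the groups, changes are also given with the 18S signal as a covariate. In that fit 4 of the higher and 11 of the lower called genes still passed, and a gene did not pass there unless the text says that it stayed called.

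**Figure D1:**
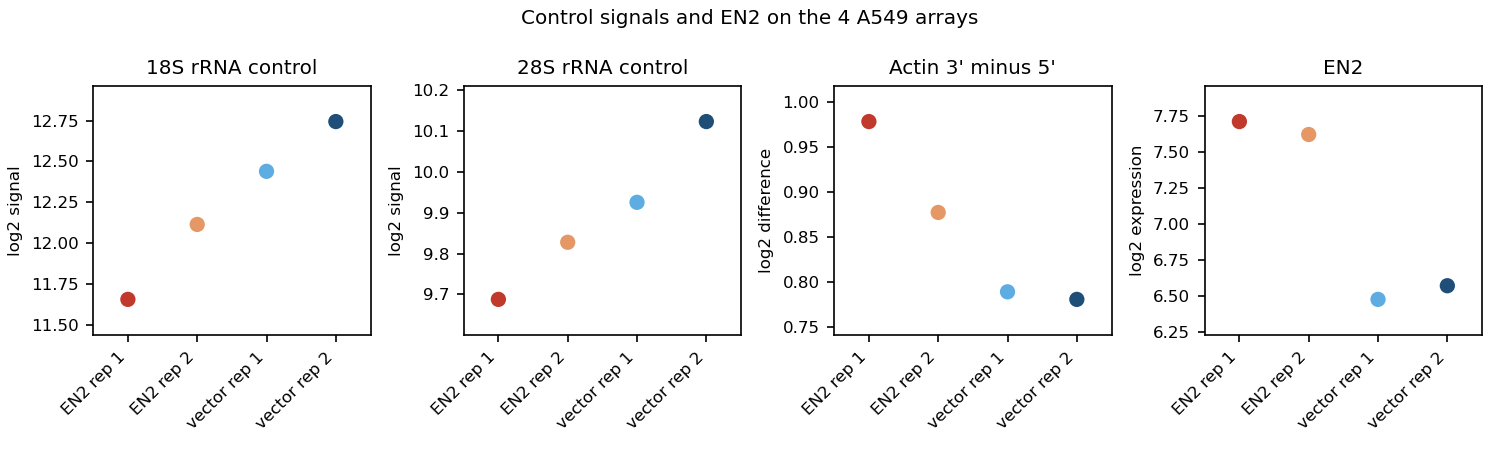
Log2 signal of 18S rRNA and 28S rRNA, the log2 difference of the actin 3′ and 5′ probe sets, and log2 expression of EN2, with 1 point for each of the 4 A549 arrays. 18S rises from 11.66 to 12.74 across the arrays in the order EN2 replicate 1, EN2 replicate 2, vector replicate 1, vector replicate 2, while EN2 falls into a high and a low pair.

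EN2 itself came first as a check on the labels. Its signal was 7.71 and 7.62 on the EN2 arrays and 6.48 and 6.57 on the vector arrays. Both EN2 arrays stood above both vector arrays, and the replicates of a group differed far less than the groups did. The change was 1.15 on the log2 scale (SE 0.091, limma, Benjamini-Hochberg adjusted p = 0.00028), or 2.21-fold. With the 18S covariate the estimate was 1.11 and no longer passed (adjusted p = 0.13). A lower-reading EN2 probe set moved by 0.05. Which of the probe sets reads the retroviral insert is not given in the sources used here.

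Of the 18244 genes, 287 (1.57%) rose and 209 (1.15%) fell with EN2 (2.72% in either direction, limma, adjusted p below 0.05). At an unadjusted p below 0.05, 1800 were higher and 1375 lower. Counts in the gene lists below are to be read beside these. At least 2-fold changes made up 28 of the higher and 21 of the lower genes. Each of the 496 called genes had both EN2 arrays on 1 side of both vector arrays. Groups that lie apart are therefore no added support for any called gene described below. Over all genes, 24.1% lay apart in the higher and 23.5% in the lower direction. The leading genes are a mixed group by function. Those that rose include secreted and matrix proteins (TFF1, FN1, SPOCK1, NPTX1), a BMP antagonist (GREM1), carbonic anhydrases (CA2, CA13) and the thyroid hormone deiodinase DIO2. Those that fell include epithelial genes (CDH1, EHF), a kinase inhibitor (PKIB) and a membrane protein with thrombospondin domains (THSD7A). They also include 3 neighbouring zinc finger genes and the antioxidant enzyme GPX2. Where a called gene had several probe sets, all of them moved in the gene's direction for 190 of 240 higher and 133 of 143 lower genes; over all genes with several probe sets this held for 52.0%. Some probe sets moved the other way in COL12A1 (2 of 4 higher), IGF1R (5 of 7), AMOTL2, PDE7B and PLCB1 (2 of 3 each), HES1, PRDM1 and THBS1 (4 of 5 each), FBN2 (4 of 5 lower) and NR4A1 (6 of 7). Leaving out EN2 replicate 1 left 54 higher and 58 lower genes, and leaving out vector replicate 2 left 57 and 59; without EN2 replicate 2 there were 369 and 254. Of the 147 called genes chosen to be named, 62 stayed called without EN2 replicate 1 and 61 without vector replicate 2. Vector means lay below background for 10 of the higher genes, and 3 of these stayed below it with EN2. EN2 means lay below background for 7 of the lower genes, and 5 of these were already below it with vector.

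**Figure D2:**
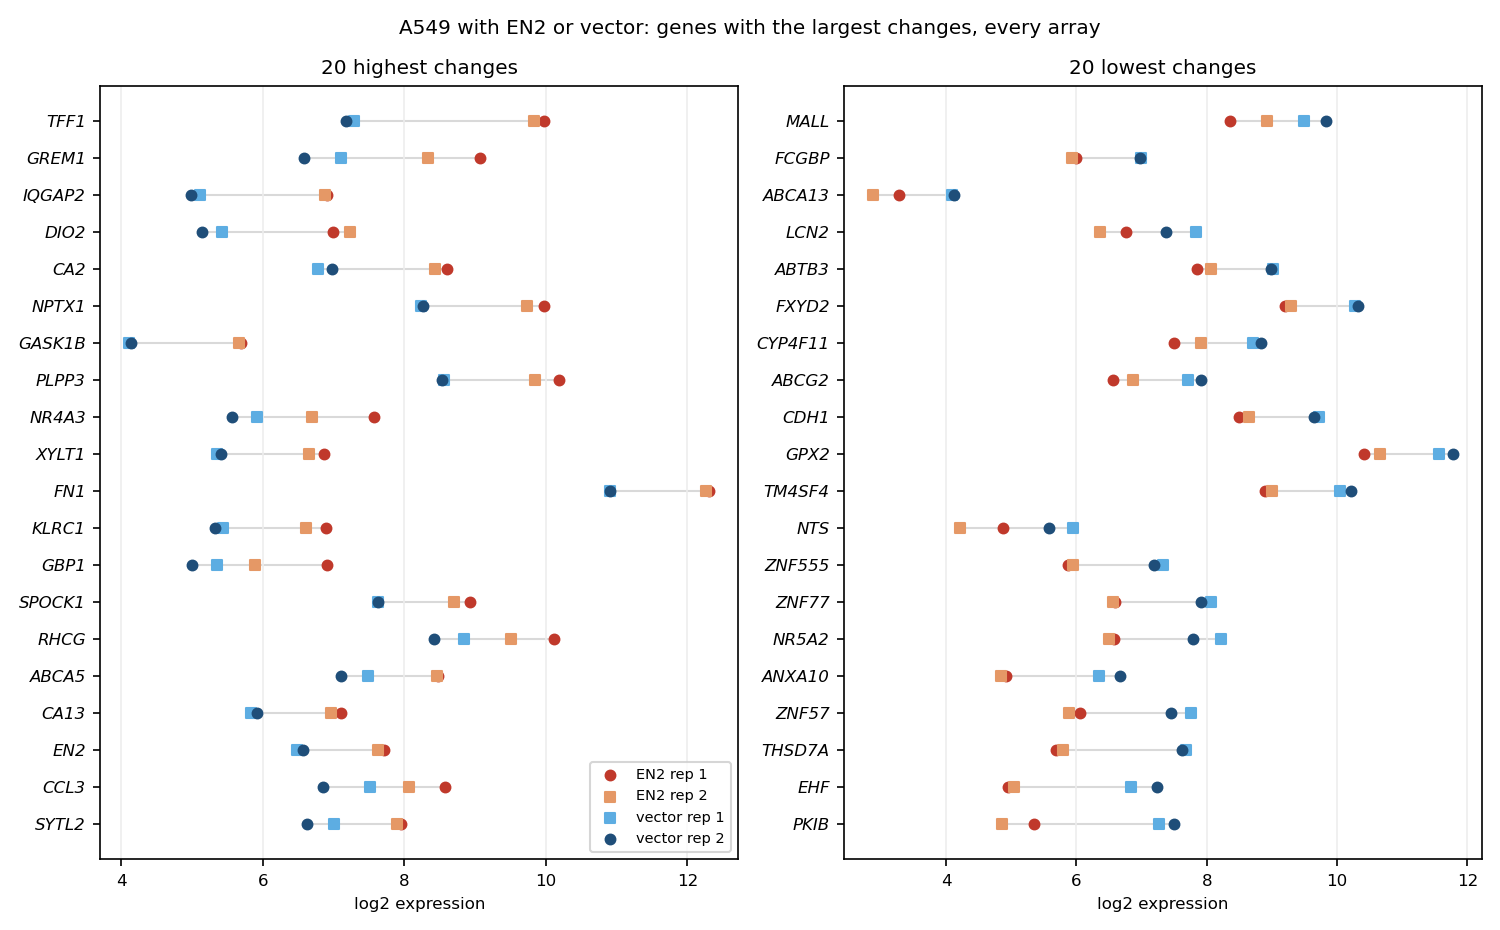
Log2 expression of the genes with the largest called changes in each direction, with 1 symbol for each of the 4 A549 arrays. TFF1 separates widest among the higher genes, at 9.97 and 9.84 with EN2 against 7.28 and 7.17 with vector, while GREM1, NR4A3 and GBP1 spread within the EN2 pair.

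TFF1, a trefoil peptide secreted with mucus by gut and airway epithelium, rose most. It read 9.97 and 9.84 on the EN2 arrays and 7.28 and 7.17 on the vector arrays. The pairs lay far apart relative to their own spread, a change of 2.68 (SE 0.11, limma adjusted p = 1e-05), or 6.39-fold. With the 18S covariate TFF1 kept 2.47 and stayed called. Of its relatives, TFF2 (-0.20, adjusted p = 0.40) and TFF3 (0.023, adjusted p = 0.94), named after their values were seen, were not called, and TFF3 lay at background on all 4 arrays. Of 19 measured trefoil, mucin and goblet cell genes, 1 rose and 2 fell, with a median of -0.0094 beside -0.0015 over all genes. The members that fell were FCGBP, a mucus-associated IgG-binding protein, at 5.99 and 5.94 against 7.0 and 6.97, and the siderophore-binding protein LCN2, at 6.76 and 6.36 against 7.83 and 7.37. In both, each EN2 array lay below each vector array.

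Matrix genes moved in both directions. Among 33 basement membrane and matrix glycoprotein genes, 5 rose and 3 fell (median 0.018). FN1, fibronectin, read 12.31 and 12.26 with EN2 against 10.91 on both vector arrays, a change of 1.37 (SE 0.10, limma adjusted p = 0.00018), and all 8 of its probe sets were higher. SPOCK1, a secreted calcium-binding proteoglycan, read 8.94 and 8.70 against 7.63 and 7.62. NID2, a basement membrane linker, read 10.12 and 9.98 against 9.15 and 9.14. In these genes the replicates of a group differed by far less than the groups. THBS1 (0.57) and COL4A2 (0.41) also rose. In the other direction THSD7A read 5.69 and 5.79 against 7.68 and 7.62, a change of -1.91 (SE 0.087, limma adjusted p = 1.63e-05). FBN2 (-0.68) and COL4A6 (-0.44) fell as well. COL12A1, a fibril-associated collagen, rose by 0.75. Among 38 glycosaminoglycan and proteoglycan genes 2 rose and 3 fell (median -0.024). XYLT1, which starts glycosaminoglycan chains, read 6.87 and 6.65 against 5.36 and 5.41 with a change of 1.38, which was 1.19 with the 18S covariate and did not pass (adjusted p = 0.10). HAS2, a hyaluronan synthase, rose by 0.91, with an estimate of 0.31 in that fit. The sulfatase SULF2 (-0.71), VCAN (-0.57) and the syndecan SDC1 (-0.36) fell.

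CDH1, EPCAM and EHF were the epithelial genes that fell most. Most members of the adherens junction, keratin and epithelial transcription factor lists were not called. Of 15 adherens junction and nectin genes 2 fell and none rose (2 and 2 at an unadjusted p below 0.05), with a median of 0.017. Of 22 keratin and desmosome genes 2 fell and none rose (5 and 2 at an unadjusted p below 0.05). CDH1, E-cadherin, read 8.49 and 8.64 on the EN2 arrays and 9.72 and 9.64 on the vector arrays. Every EN2 array was lower, by 1.11 on average (SE 0.095, limma adjusted p = 0.00038), and the fold size was 2.17. EPCAM, an epithelial adhesion molecule, read 5.19 and 5.34 against 6.05 and 6.03. EHF, an ETS factor of epithelia, read 4.96 and 5.04 against 6.83 and 7.24, a change of -2.04 (SE 0.12, limma adjusted p = 8.11e-05) with all 8 of its probe sets lower. Of 6 epithelial markers, 4 fell: CDH1, EPCAM, KRT19 (-0.70) and KRT18 (-0.20). The mean level of all 6 markers was 10.11 and 10.19 with EN2 and 10.62 and 10.66 with vector. KRT8 (-0.21, adjusted p = 0.077) and KRT7 (0.048, adjusted p = 0.75) did not pass. EHF was the only one of 14 epithelial transcription factors called (0 higher and 3 lower at an unadjusted p below 0.05). The median of these 14 was -0.055. No tight junction gene of 20 was called (2 higher and 0 lower at an unadjusted p below 0.05); the smallest p among them were those of TJP1 (0.25, adjusted p = 0.18), OCLN, CLDN2 and CLDN1.

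Mesenchymal genes were split. Of 26 transcription factors and markers of epithelial-mesenchymal transition, FN1 rose and ACTA2, smooth muscle actin, fell (7.69% called, beside 2.72% of all genes), with a median of 0.035. At an unadjusted p below 0.05, 8 were higher and 3 lower. ACTA2 read 6.96 and 6.76 with EN2 against 7.81 and 7.77 with vector, so both EN2 arrays were lower. VIM read 12.89 and 12.88 against 12.88 and 12.83, and SNAI2 6.14 and 5.62 against 5.28 and 5.21 (adjusted p = 0.072), both named after their values were seen. Among markers of other cells, none of 8 fibroblast, 5 leukocyte, 5 endothelial and 6 alveolar type 2 markers was called. At an unadjusted p below 0.05, 3 were higher and 1 lower. The alveolar type 2 marker LAMP3, named after its values were seen, had the largest value. It read 5.97 and 5.42 with EN2 against 5.28 and 4.90 with vector (0.61, limma adjusted p = 0.13). The mean fibroblast marker level was 4.47 on both EN2 arrays and 4.48 and 4.50 on the vector arrays, with COL3A1, DCN, LUM and PDGFRA below background. The mean leukocyte marker level was between 4.62 and 4.67, with PTPRC and LYZ below background.

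Genes of BMP, TGF-beta and activin signalling showed calls in 1 direction. This pathway passes signals from secreted ligands through serine/threonine kinase receptors to SMAD factors, and secreted antagonists limit it. Of 40 measured members, 7 rose and none fell (17.5% called, beside 2.72% of all genes). The median was 0.27 (0.16 without EN2 replicate 1). At an unadjusted p below 0.05 in limma, 20 were higher and 1 was lower; over all genes the counts were 1800 and 1375. Among ligands BMP6 rose (0.42), among receptors ACVR2A (0.52), and among targets and feedback genes ID4 (0.61) and PMEPA1 (0.63). The extracellular modulators BMPER (0.66) and FSTL1 (0.41) also rose. GREM1, a secreted BMP antagonist, had the largest change of the list. It read 9.08 and 8.34 with EN2 and 7.10 and 6.59 with vector. The EN2 arrays were both higher, but they differed from each other by more than those of most leading genes. The change of 1.86 (SE 0.25, limma adjusted p = 0.0056) became 0.66 with the 18S covariate, and the list's median became 0.043. SMAD6, an inhibitory SMAD, had the lowest value of the list, -0.57, and was not called.

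Target genes of the Hippo effectors leaned higher too. Of 26 targets of YAP and TAZ, 4 rose (FOXF2, LHFPL6, AMOTL2 and TEAD1) and GADD45B fell (-0.59). The median of the 26 was 0.26 (0.39 without EN2 replicate 2), and -0.047 with the 18S covariate. WWTR1, which encodes TAZ itself and was named after its values were seen, was called lower (-0.46, limma adjusted p = 0.015). Its value with the covariate is not given here. FOXF2, a forkhead factor, read 9.33 and 9.24 against 8.44 and 8.42, tight pairs with a change of 0.85, which was 0.74 with the covariate and did not pass (adjusted p = 0.20). CCN1, a classic target of these factors named after its values were seen, read 10.54 and 10.32 against 9.93 and 8.65 and did not pass (adjusted p = 0.090). Of 39 Wnt genes only DKK1, a secreted Wnt antagonist, was called. It read 12.46 and 12.39 against 11.76 and 11.70. Of 24 Notch genes the repressors HES1 and HES4 rose. HES1 read 8.35 and 8.69 against 7.63 and 7.53, and its change of 0.94 was 1.24 with the covariate.

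Immediate early genes lay higher with EN2, with smaller values once 18S was a covariate. These genes switch on soon after growth factor or stress signals. Of 27 members 4 rose and none fell (14.8% called, beside 2.72% of all genes), and the median was 0.34. At an unadjusted p below 0.05, 13 were higher and 1 lower. Without EN2 replicate 1 the median was 0.16, without EN2 replicate 2 0.56, without vector replicate 1 0.54 and without vector replicate 2 0.11. Those that rose were the nuclear receptors NR4A3, NR4A1 and NR4A2 and the AP-1 subunit FOSL2. NR4A2 read 7.77 and 7.55 with EN2 and 6.78 and 6.62 with vector. NR4A3 read 7.57 and 6.69 against 5.91 and 5.56. Both pairs lay apart, but NR4A3 spread by 0.88 within its EN2 pair. With the 18S covariate NR4A3 went from 1.40 to 0.25 and NR4A2 from 0.96 to 0.60, and the list's median became -0.20. FOS (0.34) and EGR1 (0.57) were not called. PRDM1, a transcriptional repressor of lymphoid and epithelial cells, read 8.10 and 7.73 against 7.21 and 6.55 and went from 1.03 to 0.20.

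Interferon and chemokine genes also held more higher than lower calls. Type I interferon response genes encode sensors of viral RNA and proteins that block viral replication. At an unadjusted p below 0.05, 14 of the 40 measured were higher and 0 lower, and the median was 0.18. Of the 40, 5 rose and none fell (12.5% called, beside 2.72% of all genes). They were the RNA sensors RIGI and IFIH1, IFI44, SAMD9 and IFIT3. RIGI read 10.54 and 10.12 with EN2 and 9.73 and 9.33 with vector. IFIH1 read 10.68 and 10.26 against 9.97 and 9.56. In each the values stepped down along the rise of 18S. With the covariate RIGI went from 0.80 to 0.10, IFIH1 from 0.70 to -0.011, and the list's median to 0.0032. SAMD9 went from 0.66 to 0.41 and IFI44 from 0.71 to 0.43. Of 41 chemokine, cytokine and NF-kB genes, CXCL10 (0.62), CXCL11 (0.73) and the kinase IRAK2 (0.70) rose and LCN2 fell, with a median of 0.20 and of -0.075 with the covariate. That median was 0.11 without EN2 replicate 1 and 0.027 without vector replicate 2. The chemokine CCL3, at 8.57 and 8.07 against 7.51 and 6.85, went from 1.14 to 0.16. The interferon-inducible GTPase GBP1 read 6.91 and 5.88 against 5.35 and 5.00 and turned from 1.22 to -0.14. IL6, named after its values were seen, read 10.41 and 9.71 against 9.16 and 8.06 and did not pass (1.44, adjusted p = 0.072).

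The interferon-stimulated response element, to which interferon-activated factors bind, has a core that repeats GAAA after a gap of any 2 bases. Promoters were available for 14494 genes, among them 236 of the genes that rose and 162 of those that fell, as the 250 bases before the start in RefSeq (GRCh38.p14). The core, on either strand, lay in 13 of the 236 promoters of higher genes (5.51%), in 1.23% of those of lower genes and in 2.58% of all. Such a match is a description of letters, not a site of binding. Among the interferon response genes that rose, IFI44 and SAMD9 held 1 core each and RIGI held none. Of the other risen genes of the paragraph above, CXCL10 and GBP1 held 1 each, and CXCL11, IRAK2 and CCL3 held none. IFIT3 (chr10:89327747-89327996, plus strand) held 2 cores and IFIH1 (chr2:162318685-162318934, minus strand) held 3, and both are shown 5′ to 3′ in the gene's direction with the cores in capitals. The capitals at the 5′ end of IFIH1 cover 2 overlapping cores on the opposite strand.
IFIT3: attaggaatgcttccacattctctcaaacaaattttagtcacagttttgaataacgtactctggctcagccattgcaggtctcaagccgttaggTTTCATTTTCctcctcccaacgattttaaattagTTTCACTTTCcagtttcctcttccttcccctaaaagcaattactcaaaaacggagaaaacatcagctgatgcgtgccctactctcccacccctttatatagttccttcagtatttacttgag
IFIH1: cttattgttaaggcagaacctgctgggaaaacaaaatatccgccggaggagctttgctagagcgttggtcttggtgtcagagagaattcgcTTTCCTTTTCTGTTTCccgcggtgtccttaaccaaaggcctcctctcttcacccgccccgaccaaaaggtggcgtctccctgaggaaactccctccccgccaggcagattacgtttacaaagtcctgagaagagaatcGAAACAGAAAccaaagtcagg

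Most antioxidant genes fell or lay lower. NRF2 drives enzymes that reduce peroxides, make glutathione and clear reactive aldehydes. Of 26 targets measured, 6 fell and none rose (23.1% called, beside 2.72% of all genes), with a median of -0.22. At an unadjusted p below 0.05, 18 were lower and 0 higher. In 23 of the 26, both EN2 arrays lay below both vector arrays, and over all genes this held for 23.5%. HMOX1 had the highest value of the list, 0.20, and was not called. GPX2, a glutathione peroxidase, read 10.41 and 10.66 against 11.57 and 11.78, a change of -1.14 (SE 0.10, limma adjusted p = 0.00052). ALDH3A1, an aldehyde dehydrogenase, read 12.06 and 12.29 against 12.82 and 13.04. AKR1C1 read 12.43 and 12.59 against 13 and 13.07. The arrays of each gene again kept the groups apart, and within each pair the array with more 18S was higher. CYP4F11 (-1.07), GCLM (-0.50), a subunit of an enzyme of glutathione synthesis, and AKR1B10 (-0.37) fell too. NQO1, a standard reporter of this pathway named after its values were seen, did not pass (-0.090, adjusted p = 0.40). With the 18S covariate the median was -0.082 and GPX2 -0.71.

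Of 38 xenobiotic and steroid enzymes and transporters 6 fell and none rose (15.8% called, beside 2.72% of all genes), with a median of -0.057. At an unadjusted p below 0.05, 13 were lower and 0 higher. The drug efflux pump ABCG2 read 6.57 and 6.87 with EN2 and 7.71 and 7.92 with vector. EPHX1, an epoxide hydrolase, read 7.60 and 7.68 against 8.40 and 8.43, and the esterase CES1 9.20 and 9.07 against 9.79 and 9.74. In all of them both EN2 arrays were lower. ALDH3A1, CYP4F3 and CYP4F11 were the others, and ALDH3A1 and CYP4F11 are also counted among the NRF2 targets.

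Targets of p53 gave many calls for a list of their size. Of 26 measured, 8 fell and none rose (14 lower and 1 higher at an unadjusted p below 0.05), a share of 30.77% beside 2.72% over all genes, with a median of -0.29. MDM2, the ubiquitin ligase that degrades p53, read 8.41 and 8.51 against 9.24 and 9.35, a change of -0.84 (SE 0.091, limma adjusted p = 0.0015), and all 11 of its probe sets were lower. DDB2, a DNA damage sensor, read 9.13 and 9.11 against 9.67 and 9.62. PPM1D, a phosphatase that switches off the DNA damage response and is outside the list, read 8.46 and 8.29 against 9.51 and 9.23. Each pair was tight beside its distance from the other. BAX (-0.51), FAS (-0.51), PHLDA3 (-0.44), ZMAT3 (-0.41), CCNG1 (-0.37) and TRIAP1 (-0.31) made up the rest. CDKN1A, the cell cycle inhibitor best known as a p53 target, read 11.58 and 11.29 against 11.84 and 11.80 and did not pass (adjusted p = 0.10); it was named after its values were seen. With the 18S covariate the median was -0.44, but none of the 8 members stayed called, and MDM2 was -0.64 (adjusted p = 0.43). PPM1D went from -1.0 to -1.36 and stayed called.

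Lineage factors were split. Among 20 gut and liver transcription factors GATA6 (0.85), HNF4G (0.55) and SOX9 (0.49) rose and NR5A2 fell. NR5A2, a nuclear receptor of liver and pancreas, read 6.58 and 6.50 with EN2 and 8.22 and 7.79 with vector, a change of -1.46 (SE 0.13, limma adjusted p = 0.00051) that was -1.85 and still called with the covariate. GATA6 read 8.12 and 7.73 against 7.14 and 7.01, and HNF4G lay between 3.66 and 4.41, at background. Midbrain-hindbrain patterning genes, with which engrailed acts in the embryo, moved little. Of 27 only EBF1 rose (0.57), and the median was 0.0078. Among 16 engrailed genes and cofactors, the corepressor TLE4 rose and TLE5, a short family member, fell. TLE4 read 7.96 and 7.58 against 7.01 and 6.78, and TLE5 9.39 and 9.48 against 9.75 and 9.76. TLE1 (0.27) and TLE3 (0.097) were not called.

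Other leading genes belong to signalling and secretion. PKIB, a peptide inhibitor of protein kinase A, fell most, from 7.27 and 7.50 with vector to 5.35 and 4.86 with EN2. This change of -2.29 (SE 0.17, limma adjusted p = 0.00018), shared by all 5 probe sets, was -2.67 and still called with the covariate. Among the 27 genes of this kinase and of cyclic AMP, the regulatory subunit PRKAR2B (0.83) and the phosphodiesterase PDE7B (0.75) rose. IQGAP2, a scaffold of small GTPase signalling, read 6.90 and 6.87 against 5.11 and 4.99. DIO2, which activates thyroid hormone, read 6.99 and 7.23 against 5.42 and 5.14. GASK1B, a Golgi-associated kinase-like protein, read 5.69 and 5.67 against 4.11 and 4.13, from below background with vector. These 3 genes and TFF1 were the called higher genes that also passed with the 18S covariate. CA2 (1.64), NPTX1 (1.61), a secreted neuronal pentraxin, and PLPP3 (1.48), which removes phosphate from lysophosphatidic acid, also rose. SYT1, a vesicle calcium sensor, rose by 0.99, while the peptide hormone NTS fell by 1.22, from 5.95 and 5.57 to 4.88 and 4.21. NTS stayed called with the 18S covariate, though its value on EN2 replicate 2 lay below background. The peptide-processing protease PCSK6 (-0.59) fell too.

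Of 34 lipid phosphate, sphingolipid and prostaglandin genes 4 rose and 1 fell, with a median of -0.0081. The prostaglandin receptor PTGER4 read 8.12 and 7.67 with EN2 and 7.04 and 6.59 with vector. The phospholipase PLCB1 rose by 1.07 and the sphingosine phosphate receptor S1PR3 by 0.49, beside PLPP3, while the reductase PTGR1 fell by 0.38. Among 39 small GTPase regulators and scaffolds, ARHGAP24 (0.54) and RND1 (0.48) rose with IQGAP2, and RAP1GAP (-0.65) and RHOC (-0.35) fell. SYTL2, which links vesicles to Rab GTPases, read 7.96 and 7.89 against 7.01 and 6.62, so both EN2 arrays were higher. Of 31 nuclear receptors NR1H3, an oxysterol receptor, fell by 0.56 beside NR5A2.

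Annexins and S100 proteins bind calcium and membranes, and the TM4SF genes encode membrane proteins. Among 29 annexin, S100 and TM4SF genes 6 fell and none rose (20.7% called, beside 2.72% of all genes), with a median of -0.17. At an unadjusted p below 0.05, 13 were lower and 0 higher. Of the 29, 20 had both EN2 arrays below both vector arrays, beside 23.5% of all genes. ANXA10 read 4.91 and 4.85 against 6.35 and 6.67, and TM4SF4, a tetraspanin-like protein of liver and gut, 8.89 and 9.0 against 10.04 and 10.21. The pairs did not overlap in either gene. ANXA13 (-0.63), ANXA4 (-0.47), S100A16 (-0.35) and S100A10 (-0.31) were smaller. In the coagulation and complement list of 41, TFPI2 (0.77), PROS1 (0.73) and CD59 (0.40) rose and APOH (-0.66) fell. TFPI2, a protease inhibitor of the matrix, read 11.98 and 11.94 against 11.13 and 11.24. Of 47 axon guidance genes, CNTN1 (-0.86), SLIT3 (-0.68) and EFNB2 (-0.66) fell and none rose (6 and 4 at an unadjusted p below 0.05). In the IGF system of 20, the receptor IGF1R rose by 0.36 while the adaptor IRS1 (-0.58) and the protease HTRA1 (-0.74) fell. No cytosolic ribosomal protein gene of 38 was called (0 at an unadjusted p below 0.05), and their median was 0.015.

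**Figure D3:**
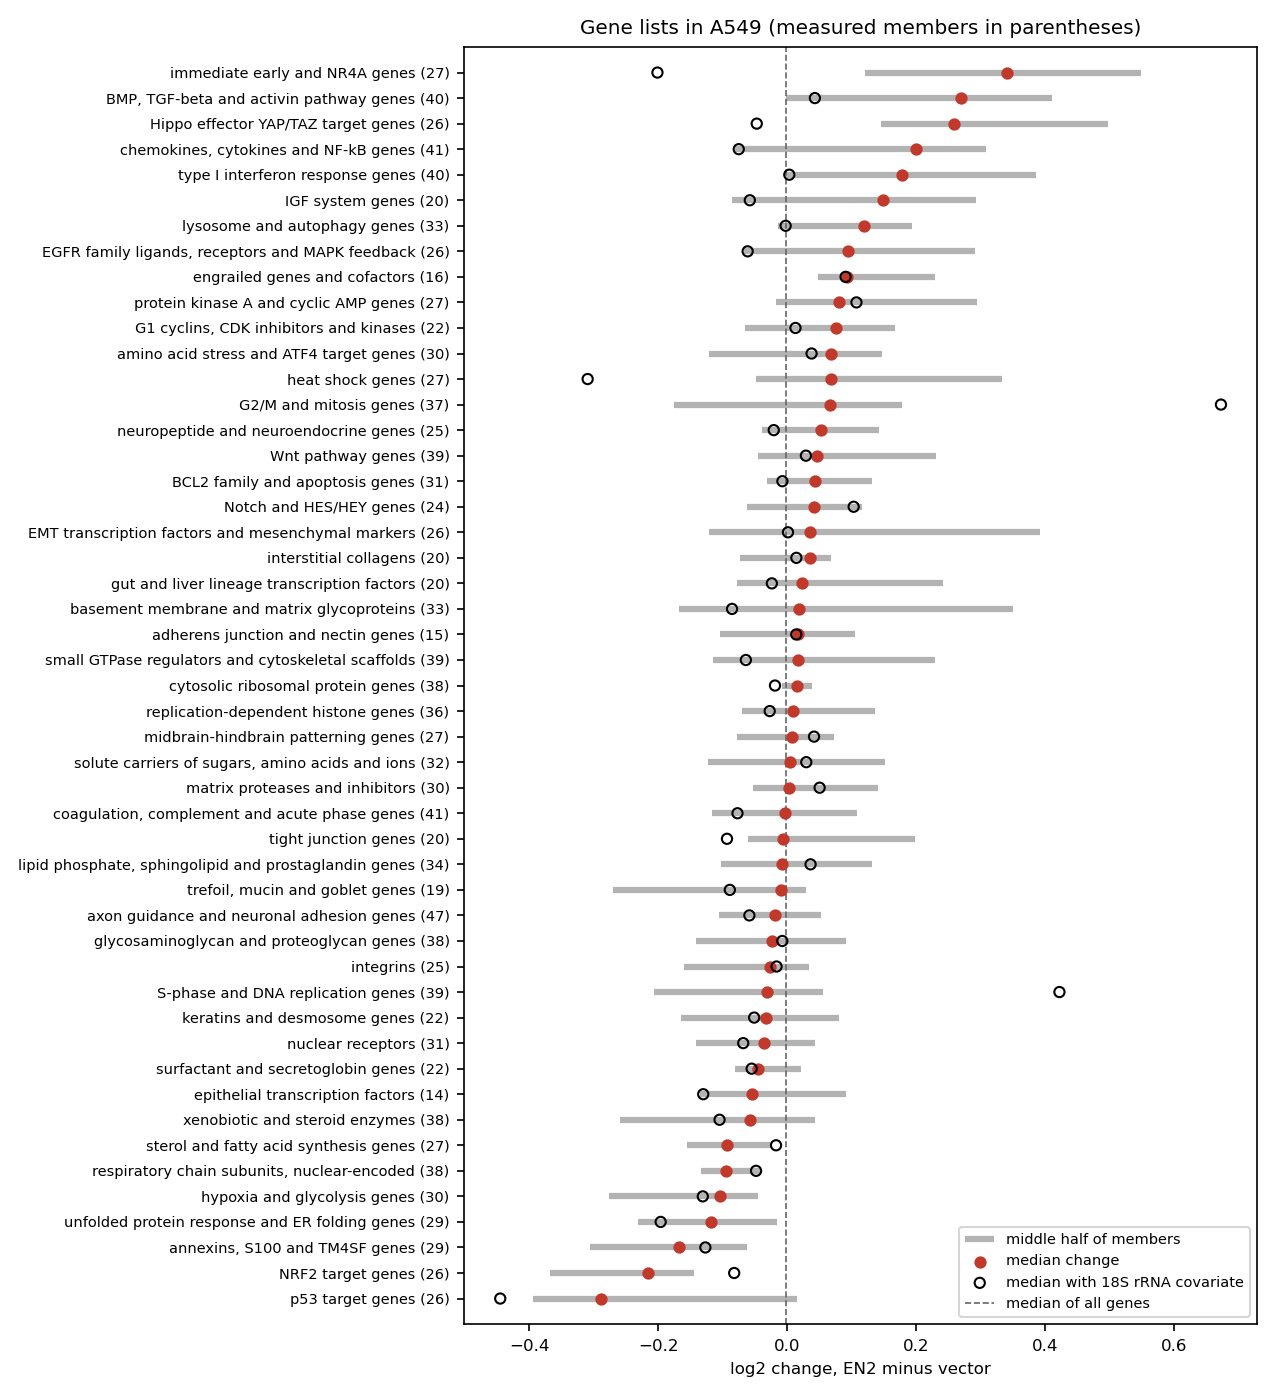
Median log2 change (EN2 minus vector in A549) of each gene list as a filled point, the quartiles of its members as a bar, and the median with the 18S rRNA covariate as an open circle, with the number of measured members in parentheses. Immediate early genes move from 0.34 to -0.20 with the covariate and p53 targets from -0.29 to -0.44.

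Other promoter motifs were counted in the same way. TAATTA, the core bound by engrailed and many other homeodomain proteins, lay in 2.12% of the promoters of higher genes (5 of 236), in 0.617% of those of lower genes (1 of 162) and in 3.07% of all. CACCTG, the E-box of SNAI and ZEB factors, lay in 11% of higher, 22.8% of lower (37 promoters) and 16.8% of all. TGACNNNGC, the antioxidant response element core, lay in 8.47%, 13% and 11.7%. As above, these are counts of letters. PLPP3 (chr1:56579564-56579813, minus strand) and ABTB3 (chr12:107318184-107318433, plus strand; 7.84 and 8.07 with EN2 against 9.02 and 8.99) are shown because they hold TAATTA, in capitals, among the 13 of 20 leading higher and 18 of 20 leading lower genes whose promoters were searched. GPX2 (chr14:64942746-64942995, minus strand) is shown for CACCTG and the antioxidant core, both in capitals and both read on the opposite strand.
PLPP3: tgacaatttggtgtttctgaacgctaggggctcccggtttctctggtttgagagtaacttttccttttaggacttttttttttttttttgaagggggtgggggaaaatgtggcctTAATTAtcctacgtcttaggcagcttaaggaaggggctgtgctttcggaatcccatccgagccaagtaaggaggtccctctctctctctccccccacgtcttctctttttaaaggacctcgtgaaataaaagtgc
ABTB3: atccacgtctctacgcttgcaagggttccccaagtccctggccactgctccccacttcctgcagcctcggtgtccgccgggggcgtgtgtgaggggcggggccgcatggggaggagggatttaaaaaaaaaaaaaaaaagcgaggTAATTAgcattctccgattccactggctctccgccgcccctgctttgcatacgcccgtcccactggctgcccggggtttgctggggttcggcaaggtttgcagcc
GPX2: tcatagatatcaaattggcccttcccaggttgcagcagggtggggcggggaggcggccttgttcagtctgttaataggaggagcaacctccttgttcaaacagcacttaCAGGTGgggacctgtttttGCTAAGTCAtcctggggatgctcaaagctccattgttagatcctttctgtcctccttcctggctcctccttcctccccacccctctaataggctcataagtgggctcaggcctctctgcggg

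Some called genes are neighbours on a chromosome. The only run of 3 or more measured neighbours called in the same direction was ABCA10, ABCA5 and MAP2K6 on chromosome 17. ABCA5, a lipid transporter, read 8.48 and 8.46 with EN2 against 7.48 and 7.11, and MAP2K6, a kinase that activates p38, 9.48 and 9.56 against 8.48 and 8.38. Both stood apart from the vector arrays, and ABCA10 rose by 0.52. The next measured gene, KCNJ16, lay near background and was not called (0.039), while KCNJ2 (0.56) and SOX9 (0.49) after it rose. KCNJ2 was named after its values were seen. ABCA8, ABCA9 and ABCA6 on the near side and SLC39A11 and SSTR2 on the far side were not called. The genes are spread widely. Counted from the start of ABCA8, ABCA10 starts at 281 kb, MAP2K6 at 547 kb, KCNJ2 at 1302 kb and SOX9 at 3254 kb. With the covariate ABCA10 was 0.75, ABCA5 0.90, MAP2K6 1.12, KCNJ2 0.50 and SOX9 0.41.

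On chromosome 19, 3 of the lowest genes lie close together and encode zinc finger proteins whose functions are little known. ZNF57 read 6.05 and 5.88 against 7.76 and 7.45, ZNF77 6.59 and 6.55 against 8.06 and 7.91, and ZNF555 5.87 and 5.95 against 7.34 and 7.19. In each the 4 arrays formed 2 tight pairs, with changes between -1.64 and -1.35. Between them lies ZNF556, which was at background on all 4 arrays (-0.13). On the near side ZNF554 was not called (-0.23) but THOP1, a peptidase, fell by 0.38. On the far side TLE6 and TLE2 were not called and TLE5 fell by 0.32. THOP1, ZNF554, ZNF556, TLE6 and TLE2 were named after their values were seen. ZNF57 and ZNF77 passed with the 18S covariate too, at -2.01 and -1.57. In PC9 the 3 changes were 0.10, -0.086 and -0.16.

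Cell cycle genes differed between replicates, in the same direction in both groups. In S-phase and DNA replication genes, 34 of 39 read lower in replicate 1 than in replicate 2 in both groups, and in G2/M and mitosis genes 35 of 37 did. Over all genes this held for 29.6%. The median gap was -0.30 in the EN2 pair and -0.23 in the vector pair for S-phase genes, and -0.44 and -0.25 for G2/M genes. MKI67, a proliferation marker, read 8.30 and 8.82 with EN2 and 8.41 and 8.92 with vector. RRM2, a subunit of ribonucleotide reductase, read 8.16 and 8.85 against 8.63 and 9.28, and GINS2, a helicase subunit, 6.40 and 7.46 against 7.21 and 8.19. In each the gap between replicates was larger than the step between groups. No S-phase gene was called (0 higher and 2 lower at an unadjusted p below 0.05), and of the G2/M genes only CDK1 rose, at 9.70 and 9.82 against 9.23 and 9.18. The medians were -0.031 and 0.067, and both changed sign with the array left out: from -0.21 to 0.075 for S-phase and from -0.15 to 0.26 for G2/M genes, lowest without EN2 replicate 2.

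Stress genes showed the opposite gap. Of 27 immediate early genes 21, and of 27 heat shock genes 17, read higher in replicate 1 in both groups, beside 29.4% of all genes. Of 41 chemokine and NF-kB genes 28 did. HSPA1A, an inducible chaperone whose near-identical copy HSPA1B makes its reading uncertain, read 12.11 and 10.58 with EN2 and 11.63 and 10.39 with vector. EGR1 read 10.35 and 9.39 against 10.31 and 8.29. HSPA6, another inducible chaperone, read 8.32 and 5.94 against 6.79 and 6.11. The array labelled replicate 1 was the higher of its pair in all 3 genes, and none was called. HSPA1A, HSPA6, EGR1 and MKI67 were named after their values were seen. The only heat shock gene called was the small chaperone HSPB1, which fell, from 11.09 and 11.27 to 10.42 and 10.51. Within each group replicate 1 was also the array with less 18S, so the fit with the 18S covariate takes its slopes from these same gaps. In that fit the S-phase median was 0.42, the G2/M median 0.67 and the heat shock median -0.31.

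**Figure D4:**
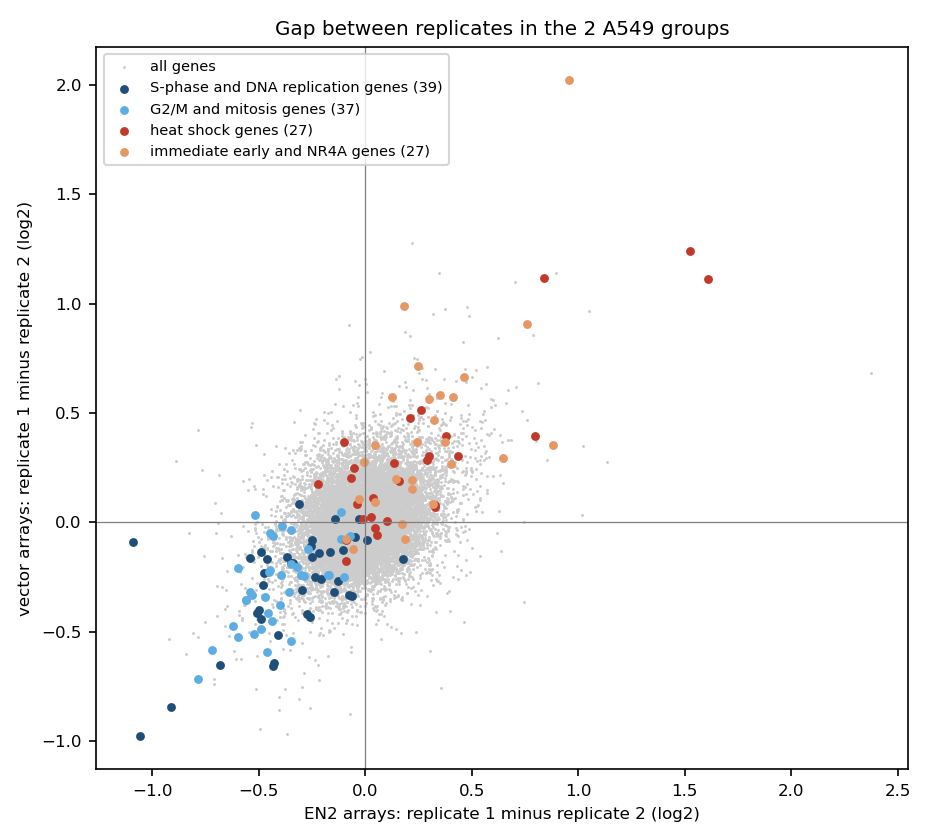
Replicate 1 minus replicate 2 (log2) in the EN2 pair on the x axis and in the vector pair on the y axis, for all genes in grey and for marked gene lists in colour. S-phase and G2/M genes lie in the lower left, with median gaps of -0.30 and -0.44 in the EN2 pair, and immediate early genes in the upper right, with 0.24 and 0.35.

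The called genes were also placed along the 18S order as a whole. Of the 287 higher genes 182 (63.4%) fell step by step as 18S rose across the 4 arrays, and of the 209 lower genes 100 (47.8%) rose step by step. Among all genes whose groups lay apart the shares were 42.9% and 39.9%. With 18S as a covariate 5 genes rose and 15 fell at adjusted p below 0.05 in limma (0.11% of all genes), and 4 and 11 of these were among the genes called without it. The direction held in 284 of the 287 higher and in all 209 lower genes, with a median of 66.7% and 79.9% of the change kept. The median SE grew from 0.0959 to 0.184, so fewer calls come with wider errors as well as with changed estimates. MALL, a lipid raft protein, lost the largest share among lower genes with a change of at least 1 in size; it read 8.36 and 8.93 against 9.49 and 9.84 and went from -1.02 to -0.12. RHCG, an ammonia transporter, went from 1.18 to 0.26. Lower genes that stayed called with the covariate include THSD7A (-1.83), EHF (-1.66), PRSS3 (-1.10) and LCN2 (-1.77).

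**Figure D5:**
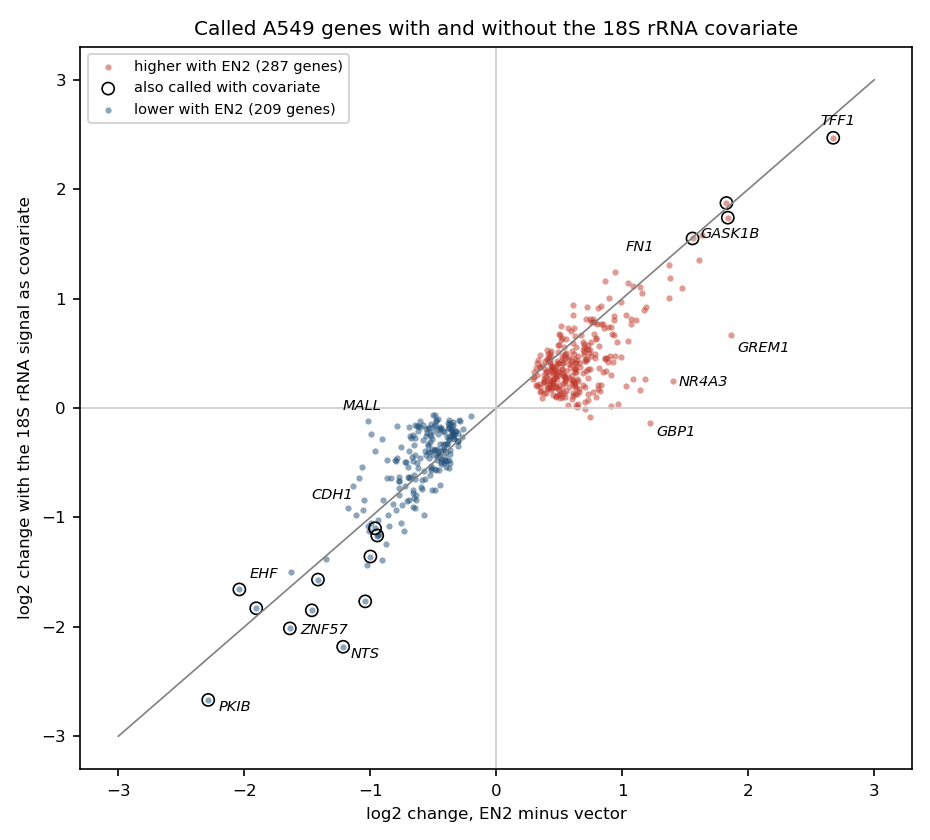
Log2 change of each called A549 gene (x axis) against its log2 change with the 18S rRNA signal as covariate (y axis), with rings on the genes called in both fits. TFF1 stays near the diagonal at 2.68 and 2.47, while GREM1 drops from 1.86 to 0.66 and GBP1 from 1.22 to -0.14.

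The changes were set against those of PC9. Of the genes called in A549, 160 of 287 higher and 117 of 209 lower genes had the same sign in PC9. These shares were 55.8% and 56.0%, beside 51.6% of all genes. In PC9, 8 of the higher and 8 of the lower genes were also called in the same direction. Another 3 of the higher and 1 of the lower genes were called there in the opposite direction. PC9 itself had 67 called genes (0.367%). The difference between the lines was called for 62 of the higher and 52 of the lower genes. Over all genes it was called for 0.784%; since the A549 change is part of that difference, genes called in A549 pass it more often by their selection. FN1 was 1.37 higher with EN2 in A549 and 0.72 lower in PC9, and that difference of 2.09 passed (limma adjusted p = 0.00067). GATA6 gave 0.85 and -0.64, TFPI2 0.77 and -0.56, and SPOCK1 1.19 and -0.50, with each difference called. COL4A6 fell more in PC9, by 1.44 against 0.44. ABCG2 was alike in size, -1.09 and -1.14, and its difference of the lines was not called (adjusted p = 0.94). EN2 itself changed by 1.15 in A549 and 0.50 in PC9, a difference that did not pass (adjusted p = 0.064). The arrays of the lines may have been scaled separately, which limits these differences.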

How the data were processed

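Each array's deposited values are log2 expression per probe set, made by the authors with RMA (per the submitters' processing notes). Its version, and whether 1 run covered all arrays, is not given in the sources used here. Of 49495 probe sets, 45284 carried 1 gene symbol, 1333 several and 2878 none, with current symbols taken by Entrez identifier for 45214. Each of 18244 genes was read from the single-symbol probe set with the highest mean over the 8 arrays.

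A model of 4 group means over the 8 arrays was fitted in limma 3.58.1 in R 4.3.3 (eBayes with trend, 4 residual degrees of freedom, two-sided, Benjamini-Hochberg over all genes, called at an adjusted p below 0.05). The self-test on simulated data checked the script. An exact permutation of 2 arrays against 2 cannot give p below 0.333. Alternatives changed scaling, probe choice, prior variance, covariates, arrays used, a replicate block and a 1.2-fold threshold.

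Genes were named from this rule: EN2; the 20 called genes with the highest and the 20 with the lowest change; the 10 highest and 10 lowest called with and without the 18S covariate; the 6 called genes with a change of at least 1 losing the largest share with it; called members of the lists described (or up to 4 of smallest p) and neighbour runs of at least 3. Members and the 49 lists were chosen with earlier results of these data known. Promoters are from RefSeq, GRCh38.p14. The number of arrays limits the precision.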

Additional observations from a re-analysis of the deposited data

Results flagged for a closer look

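Among the named genes called in A549, 52 changed differently in A549 and PC9 by limma's test of that difference (adjusted p below 0.05 over all 18244 genes). The values in parentheses are the A549 change minus the PC9 change on the log2 scale, with 2 arrays in each of the 4 groups. They are given without explanation; whether both lines were scaled together is not stated in the labels.

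Of matrix and secreted genes, the A549 change was the higher in FN1 (2.09), SPOCK1 (1.69), NID2 (0.80), THBS1 (0.72), COL12A1 (0.83) and COL4A6 (0.99); COL4A6 fell in both lines and fell more in PC9. The same held for the secreted or coagulation-related genes TFF1 (2.35), NPTX1 (1.61), TFPI2 (1.32) and PROS1 (0.97) and for the BMP antagonist and ligand GREM1 (1.93) and BMP6 (0.78). Of enzymes and transporters it held for DIO2 (1.55), CA2 (1.11), CA13 (1.39), PLPP3 (1.33), XYLT1 (1.35) and ABCA5 (0.97). Of regulators and other genes it held for IQGAP2 (1.62), GASK1B (1.45), GATA6 (1.49), NR4A2 (1.04), FOXF2 (0.79), RND1 (0.72), SYT1 (1.11), SAMD9 (1.05), LHFPL6 (1.07) and KLRC1 (0.96).

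The A549 change was the lower in epithelial genes, with EHF (-1.52), CDH1 (-1.12), EPCAM (-0.71) and KRT19 (-0.65), and in FCGBP (-1.06), FXYD2 (-1.08), TM4SF4 (-1.21), ANXA10 (-1.0) and PRSS3 (-1.03), which are largely genes of secretory epithelia. It was also lower in the zinc finger neighbours ZNF57 (-1.74), ZNF77 (-1.33) and ZNF555 (-1.20), and in the detoxifying enzymes GPX2 (-1.03), EPHX1 (-0.77), CES1 (-0.63) and AKR1C1 (-0.51). The p53-linked genes MDM2 (-0.92) and PPM1D (-0.98) and the others, PKIB (-1.70), THSD7A (-1.34), ACTA2 (-1.02), HTRA1 (-0.90), RHOC (-0.61) and ABCA13 (-0.98), followed. ABCA13 lay below background with both EN2 and vector in A549. In PC9, the genes IQGAP2, GASK1B, KLRC1, XYLT1, CA13, NID2 and ABCA13 lay below background (3.89) in both groups, so their change there could not be read and the value given is mainly that of A549.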

How the results depend on the processing

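The 287 higher and 209 lower genes became 300 and 242 after quantile normalisation, 260 and 223 after centring, 216 and 212 with the mean of a gene's probe sets, 230 and 154 with a constant and 339 and 223 with a robust prior variance, and 311 and 217 above background, all within 1.5 times. Counts moved further to 51 and 41 with the 4 A549 arrays alone, 65 and 67 with actin 3′ minus 5′ as covariate, 5 and 15 with 18S as covariate, 9 and 16 without both arrays of outer 18S signal, and 43 and 34 against a 1.2-fold change. A replicate block gave 822 and 571; the replicate gaps of the groups correlated at 0.349 across genes in A549 and 0.066 in PC9, so pairing by number was not established. Leaving out 1 array in turn gave 54 to 369 higher and 58 to 254 lower genes: leaving out EN2 replicate 1 gave 54 and 58, EN2 replicate 2 gave 369 and 254, vector replicate 1 gave 349 and 215, and vector replicate 2 gave 57 and 59. The lone array was then assumed to vary like the other groups. In all 4 of these fits 46 higher and 46 lower genes stayed called.

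Of 147 named called genes, 14 stayed called with the 18S covariate, 131 kept their direction only and 2 reversed; without both outer arrays 22 stayed called. With the 18S covariate the changes that reversed were GBP1 -0.14, IFIH1 -0.011, OCLN -0.089, CLDN2 0.17, CLDN1 -0.35, CDC6 0.33, GINS2 1.03, RRM2 0.72, RPS27 -0.0059 and RPL18 -0.029. Without both outer arrays CLDN1 was -0.037, GINS2 0.25 and RRM2 0.22. The cause was not tested. Only GBP1 and IFIH1 of these genes were called before. Signals near background, such as those of HNF4G and ABCA13, limit what their changes show.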
